A study of Mus musculus with 9 samples.

Results

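The homeostatic microglia genes described here are 32 transcripts chosen to represent surveying, undisturbed microglia. Not all of them are particular to that cell or state, and Lgmn, for one, is also expressed by other brain cells. Their members were chosen by gene symbol, and each was taken from the row of the expression table whose Ensembl identifier maps to that symbol. All 32 were found among the 55335 genes of the table, and all 32 had the mean of at least 0.5 FPKM (fragments per kilobase of transcript, scaled to the sequenced total) that was asked of a gene to be tested, as did 15997 genes in all. RNA came from the substantia nigra, the midbrain region whose dopaminergic neurons degenerate in Parkinson disease, and the mice formed 3 groups with 3 libraries each. Vehicle mice were injected with saline 2 times a week for 5 weeks. MPTP mice were injected on the same schedule with MPTP-HCl in saline at 20 mg/kg, a compound whose metabolite poisons dopaminergic neurons. MPTP + PE mice received the same MPTP injections and, after the first of them, 2 months of voluntary wheel exercise. No group had exercise without MPTP, so an effect of exercise alone cannot be told apart from one that needs MPTP. The sources used here state no strain, sex or age. Each group is described as 3 mice, without saying that a library is 1 mouse, and p-values therefore refer only to the spread between the libraries.

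Microglia are the resident macrophages of the brain. They depend on signals through the receptor Csf1r for survival, on TGF-beta signalling for their resting identity, and on the purinergic receptor P2ry12 for sensing nucleotides with their processes. In many injury and disease states the resting genes fall while phagocytic, lysosomal and antigen presentation genes rise, which is why this gene set is commonly read as a sign of microglial state. In RNA from whole tissue, fewer microglia and less RNA per microglial cell cannot be told apart.

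Of the 32 genes, 24 have a promoter in the RefSeq set for GRCm38.p6, and their start-proximal sequence is shown because binding of the myeloid factor PU.1, the product of the member Spi1, to purine-rich sites is a known feature of macrophage promoters. The letters GAGGAA, the core of such a site, were searched on both strands in the 250 bases before each start. They occur in 12 of the 24 members (50.0%) and in 6986 of 27025 genes with a promoter (25.9%). In the 60 bases nearest the start, a window chosen after the hits were seen, the shares are 8 of 24 (33.3%) and 1896 of 27025 (7.02%). The longer word GAGGAAGT, which contains GAGGAA, occurs in the 250 bases of 2 members (8.33%) and of 2.79% of all genes, and the composite word of PU.1 and IRF factors (GGAA, 2 bases of any kind, GAAA) in 0 members and 2.68% of all genes. A match describes letters only and is not a bound site. The 80 bases before the start of 4 members with a match and 2 without are given in the direction of the gene, with GAGGAA or its reverse complement TTCCTC in capitals. Inpp5d lies at chr1:87620232-87620311 (+), P2ry13 at chr3:59210883-59210962 (-), Itgam at chr7:128062560-128062639 (+), Trem2 at chr17:48346321-48346400 (+), Mertk at chr2:128698835-128698914 (+) and Olfml3 at chr3:103738002-103738081 (-).
Inpp5d: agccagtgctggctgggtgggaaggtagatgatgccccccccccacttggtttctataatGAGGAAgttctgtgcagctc
P2ry13: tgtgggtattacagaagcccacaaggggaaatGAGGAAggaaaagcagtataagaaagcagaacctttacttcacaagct
Itgam: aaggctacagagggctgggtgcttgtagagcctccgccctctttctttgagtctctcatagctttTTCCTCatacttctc
Trem2: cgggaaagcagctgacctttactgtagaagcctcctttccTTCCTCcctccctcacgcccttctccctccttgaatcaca
Mertk: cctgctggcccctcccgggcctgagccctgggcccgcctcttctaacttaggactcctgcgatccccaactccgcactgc
Olfml3: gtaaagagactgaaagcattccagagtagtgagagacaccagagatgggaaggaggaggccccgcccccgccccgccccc
None of these 6 stretches overlaps an annotated exon. Trem2 and Inpp5d, with the letters, and Mertk, without them, were among the members that followed the rest of the set most closely across libraries, as described further on, and Olfml3, without them, was among those that followed it least. P2ry13 and Itgam, also with the letters, correlated with the rest of the set at 0.79 and 0.52. Whether members with the letters followed the set more closely was not tested.

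The libraries are of like depth, and some of them differ in the tissue they hold. The steps between low FPKM values place them at about 22400000 to 27200000 fragments, with 43.6% to 45.9% of low values within 2% of a whole step, so this is an estimate. A library had 13413 to 13965 genes at 1 FPKM or more. The FPKM of all genes summed to 318416 to 319431 in vehicle, 326614 to 347524 in MPTP and 331121 to 344049 in MPTP + PE libraries. All vehicle sums were thus below all others, and a fit with values rescaled to the same sum is given at the end. Across genes, log2(FPKM + 1) correlated at 0.966 to 0.982 within groups (9 pairs) and at 0.956 to 0.981 between groups (27 pairs). Choroid plexus genes, foreign to the substantia nigra, summed to 40.5 to 352 FPKM in vehicle, 967 to 2103 in MPTP and 23.1 to 961 in MPTP + PE libraries. Thalamic genes also varied widely, with a median deviation from the gene mean between -1.53 and 1.56 log2 units among libraries. The dopaminergic gene Th was at 7.97 ± 6.75 FPKM in vehicle, 6.68 ± 5.45 in MPTP and 4.90 ± 2.06 in MPTP + PE libraries (SD, n = 3 each). The list of 8 dopaminergic genes that holds Th did not fall in the same order. It summed to 48.7 to 72.6 FPKM in vehicle, 43.9 to 88.1 in MPTP and 48.8 to 73.4 in MPTP + PE libraries. The means of these sums were 60.9, 67.2 and 64.7 FPKM.

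The defining genes were present in every library, but presence in RNA from whole tissue does not test the microglial label of the set. The mean over the 9 libraries ran from 0.572 FPKM for P2ry6 to 63.0 FPKM for Lgmn, which other brain cells also express. After Lgmn the highest were Tyrobp at 15.4, Csf1r at 13.9, Fcrls at 8.04 and Mertk at 7.91 FPKM, followed by Tmem119 at 6.97, P2ry12 at 6.84 and Laptm5 at 6.70 FPKM. At the other end stood Cd33 at 1.16, Slc2a5 at 1.15, Spi1 at 1.04, Irf8 at 0.647 and P2ry6 at 0.572 FPKM. These levels are per length of transcript. In estimated fragments the library lowest in P2ry6 held about 16.3, for a counting error of 24.8%, and the library lowest in Csf1r about 1573, for 2.5%. Markers of macrophages at the brain border were far lower, and 5 of 11 passed the filter. The 11 summed to 6.08 to 6.93 FPKM in vehicle, 6.73 to 7.90 in MPTP and 4.31 to 5.27 in MPTP + PE libraries. The 32 members summed to 173 to 202, 196 to 230 and 186 to 205 FPKM. That sum runs over more genes, and Lgmn alone gives it a mean of 63.0 FPKM. Of 14 blood leukocyte markers 3 passed, and the sum of the 14 was 5.08 to 8.65, 6.04 to 10.1 and 1.25 to 2.73 FPKM in the same order of groups, lower in all MPTP + PE libraries than in the other 6; their part in the member values was not tested.

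Nucleotide and lipid receptors were the first group. P2ry12, the ADP receptor that steers microglial processes, was at 7.91, 8.32 and 4.72 FPKM in vehicle libraries 1 to 3, at 5.01, 5.44 and 4.26 in MPTP libraries and at 7.16, 6.27 and 12.5 in MPTP + PE libraries. The MPTP + PE libraries lay above all MPTP libraries, while vehicle library 3 lay among the MPTP libraries. The difference between MPTP + PE and MPTP was 0.66 on the log2(FPKM + 1) scale (SE 0.26, 95% interval 0.08 to 1.24, two-sided test in limma, a linear model fitted to all genes at once), and its Benjamini-Hochberg adjusted p over all genes was 1.0. Without MPTP + PE library 3, the highest, the difference was 0.39. Between MPTP and vehicle it was -0.41 (95% interval -0.99 to 0.17, limma adjusted p = 0.991). P2ry12 and P2ry13, another ADP receptor, both lie within Med12l on the opposite strand, and P2ry12 shares 9 exonic bases with it. P2ry13 did not show the pattern of its neighbour, at 4.19 ± 0.810, 4.45 ± 0.479 and 4.30 ± 0.311 FPKM in vehicle, MPTP and MPTP + PE.

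Gpr34, a receptor for lysophosphatidylserine, was at 4.51, 5.04 and 6.10 FPKM in vehicle, 5.29, 6.92 and 5.45 in MPTP and 7.39, 5.11 and 6.47 in MPTP + PE libraries. The 3 groups overlapped. Entpd1, the surface enzyme CD39 that breaks down ATP and ADP, varied least of this group. It was at 2.73, 2.95 and 2.87 FPKM in vehicle, 2.56, 2.53 and 2.77 in MPTP and 2.38, 2.65 and 2.56 in MPTP + PE libraries. All MPTP + PE values were below all vehicle values, by 0.13 log2 units (95% interval -0.30 to 0.05 for the signed difference, limma adjusted p = 0.77). P2ry6, a receptor for UDP that triggers phagocytosis, was at 0.552 ± 0.260, 0.626 ± 0.119 and 0.538 ± 0.114 FPKM in the 3 groups in the same order.

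Among the survival, chemokine and adhesion receptors, Csf1r was at 12.6, 14.1 and 14.8 FPKM in vehicle, 12.9, 16.3 and 14.2 in MPTP and 13.2, 11.9 and 15.5 in MPTP + PE libraries. Its groups overlapped throughout, and its interval between MPTP and vehicle, -0.22 to 0.33 on the log2(FPKM + 1) scale, covered 0. Its exons share 873 bases with Hmgxb3 on the opposite strand, whose reads cannot be set apart without strand. Cx3cr1, the receptor for the neuronal chemokine fractalkine, was the most variable member by the ratio of highest to lowest library, at 4.51. It was at 1.58, 1.59 and 4.18 FPKM in vehicle, 1.40, 2.10 and 4.28 in MPTP and 1.55, 0.949 and 1.89 in MPTP + PE libraries. The high values were library 3 of vehicle and library 3 of MPTP, each more than any other library of its group. Its exons share 78 bases with Gm33858 on the opposite strand. Its interval for MPTP + PE against MPTP, -1.27 to 0.31, spans a fall of more than 2-fold as well as no change.

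Tgfbr1, the type I TGF-beta receptor, was at 4.59 ± 0.553, 4.54 ± 0.276 and 4.54 ± 0.315 FPKM in vehicle, MPTP and MPTP + PE. Selplg, the P-selectin ligand, was at 3.62 ± 1.53, 3.05 ± 0.955 and 4.16 ± 0.756 FPKM. Itgam, the CD11b chain of complement receptor 3, was at 4.35 ± 0.0518, 5.09 ± 0.654 and 4.15 ± 0.929 FPKM. Its MPTP values lay above its vehicle values by 0.18 log2 units (95% interval -0.14 to 0.50, limma adjusted p = 0.991), and 3450 of its exonic bases are shared with the same-strand model Gm49368.

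The transcription factors did not move as one. Sall1, which maintains microglial identity, was at 4.83, 5.5 and 9.48 FPKM in vehicle, 6.48, 5.26 and 5.58 in MPTP and 4.30, 5.6 and 4.81 in MPTP + PE libraries. Vehicle library 3 alone stood high. Irf8, a factor needed for microglial development, was at 0.468, 0.552 and 0.635 FPKM in vehicle, 0.784, 0.767 and 0.881 in MPTP and 0.555, 0.546 and 0.634 in MPTP + PE libraries. All MPTP libraries were above all others, at a level that corresponds to about 73.9 to 150 fragments per library. The differences were 0.22 log2 units for MPTP against vehicle (95% interval 0.03 to 0.42, limma adjusted p = 0.991) and -0.20 for MPTP + PE against MPTP (95% interval -0.39 to -0.004, adjusted p = 1.0). Irf8 is itself induced by interferon. The interferon genes described below had a median deviation from the gene mean of -0.05, 0.61 and 0.90 log2 units in MPTP libraries 1 to 3. It was -0.43, -0.40 and -0.49 in vehicle and -0.11, -0.04 and -0.04 in MPTP + PE libraries. MPTP library 1 thus lay within the MPTP + PE range for these genes, but not for Irf8. The part of the interferon genes in the Irf8 values was not tested. Spi1, which encodes PU.1, was at 1.07 ± 0.169, 1.08 ± 0.0999 and 0.969 ± 0.0719 FPKM.

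The phagocytic receptors with their ITAM adaptors and inhibitors made up the largest group, of 8 genes. Trem2, a lipid receptor that drives the phagocytic program, was at 1.35, 1.82 and 2.44 FPKM in vehicle, 1.62, 2.54 and 2.05 in MPTP and 2.20, 1.72 and 1.91 in MPTP + PE libraries. Tyrobp, the adaptor DAP12 that signals for Trem2, was at 10, 14.1 and 15 FPKM in vehicle, 13.1, 23.8 and 14.2 in MPTP and 17.1, 13.4 and 17.6 in MPTP + PE libraries. MPTP library 2 was highest for both, and vehicle library 1 lowest for both. Fcer1g, the Fc receptor gamma chain, was at 3.88, 4.06 and 5.10 FPKM in vehicle, 5.15, 6.45 and 6.54 in MPTP and 5.15, 4.03 and 5.42 in MPTP + PE libraries. All MPTP values exceeded all vehicle values, by 0.40 log2 units (SE 0.14, 95% interval 0.09 to 0.71, limma adjusted p = 0.991). With the choroid plexus genes as a covariate this difference was 0.12, but their summed level did not overlap between these groups, so the fit cannot separate them from the group.

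The other 5 of this group overlapped between MPTP and vehicle. The Fc receptor Fcgr3 was at 4.95 ± 1.24, 6.08 ± 1.08 and 6.08 ± 0.859 FPKM in vehicle, MPTP and MPTP + PE. Mertk, which binds dying cells through bridging ligands, was at 7.86 ± 1.94, 8.06 ± 1.37 and 7.81 ± 1.69 FPKM. Siglech, a sialic acid receptor that pairs with DAP12, was at 1.76 ± 0.236, 1.93 ± 0.306 and 1.72 ± 0.2 FPKM. The inhibitory receptor Cd33 was at 1.17 ± 0.172, 1.29 ± 0.161 and 1.03 ± 0.0226 FPKM, with all MPTP + PE values below all MPTP values. Inpp5d, the phosphatase SHIP1 that restrains ITAM signals, was at 1.52 ± 0.396, 1.67 ± 0.245 and 1.37 ± 0.183 FPKM.

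Of the endosomal, lysosomal and transport genes, Unc93b1, which carries nucleic acid sensing Toll-like receptors to the endosome, was at 3.13, 3.90 and 3.77 FPKM in vehicle, 4.12, 4.63 and 4.28 in MPTP and 3.21, 3.23 and 3.43 in MPTP + PE libraries. All MPTP libraries were above all others. It differed between MPTP + PE and MPTP by -0.32 on the log2 scale (SE 0.09, 95% interval -0.52 to -0.11), the smallest unadjusted limma p of any member in any comparison, and its Benjamini-Hochberg adjusted p was 1.0. Against vehicle MPTP was higher by 0.22 (95% interval 0.02 to 0.42, limma adjusted p = 0.991). Lgmn, a lysosomal cysteine protease, was at 60.7 ± 5.19, 69.4 ± 2.92 and 58.8 ± 12.2 FPKM in vehicle, MPTP and MPTP + PE. Laptm5, a lysosomal membrane protein of blood and myeloid cells, was at 6.34 ± 0.974, 7.15 ± 0.829 and 6.6 ± 1.41 FPKM. The fructose transporter Slc2a5 was at 1.18 ± 0.138, 1.11 ± 0.0357 and 1.17 ± 0.0299 FPKM.

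Of the 2 lipid mediator enzymes, Hpgds, which makes prostaglandin D2, was at 1.47 ± 0.270, 1.29 ± 0.173 and 1.28 ± 0.274 FPKM in vehicle, MPTP and MPTP + PE. Ltc4s, which makes leukotriene C4, was at 2.0 ± 0.491, 3.18 ± 0.923 and 2.64 ± 1.22 FPKM, the largest difference between MPTP and vehicle of any member (0.47 log2 units), with a wide interval of -0.15 to 1.09. It shares 268 exonic bases with the opposite-strand model Gm26542.

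The last group holds surface, secreted and cytoskeletal markers. Tmem119, a membrane protein used to tell microglia from other macrophages, was at 5.82, 6.92 and 6.97 FPKM in vehicle, 6.41, 8.54 and 7.03 in MPTP and 7.10, 6.03 and 7.91 in MPTP + PE libraries. The groups overlapped, and its interval for MPTP against vehicle was -0.16 to 0.42 log2 units. Ly86, the partner MD-1 of the receptor RP105, was at 1.59, 2.08 and 2.43 FPKM in vehicle, 2.43, 3.46 and 2.97 in MPTP and 2.55, 2.75 and 2.55 in MPTP + PE libraries. MPTP was higher than vehicle by 0.38 log2 units (95% interval 0.09 to 0.68, limma adjusted p = 0.991), although MPTP library 1 and vehicle library 3 coincided to 3 digits. MPTP + PE was higher than vehicle in all libraries by 0.26 (limma adjusted p = 0.753). Aif1, the calcium-binding protein Iba1, was at 1.90 ± 0.463, 2.55 ± 0.745 and 1.97 ± 0.0617 FPKM. The Fc receptor-like Fcrls was at 7.73 ± 1.69, 8.12 ± 1.11 and 8.27 ± 2.10 FPKM, and the secreted Olfml3 at 2.24 ± 0.832, 3.29 ± 0.518 and 2.20 ± 1.10 FPKM.

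**Figure D1:**
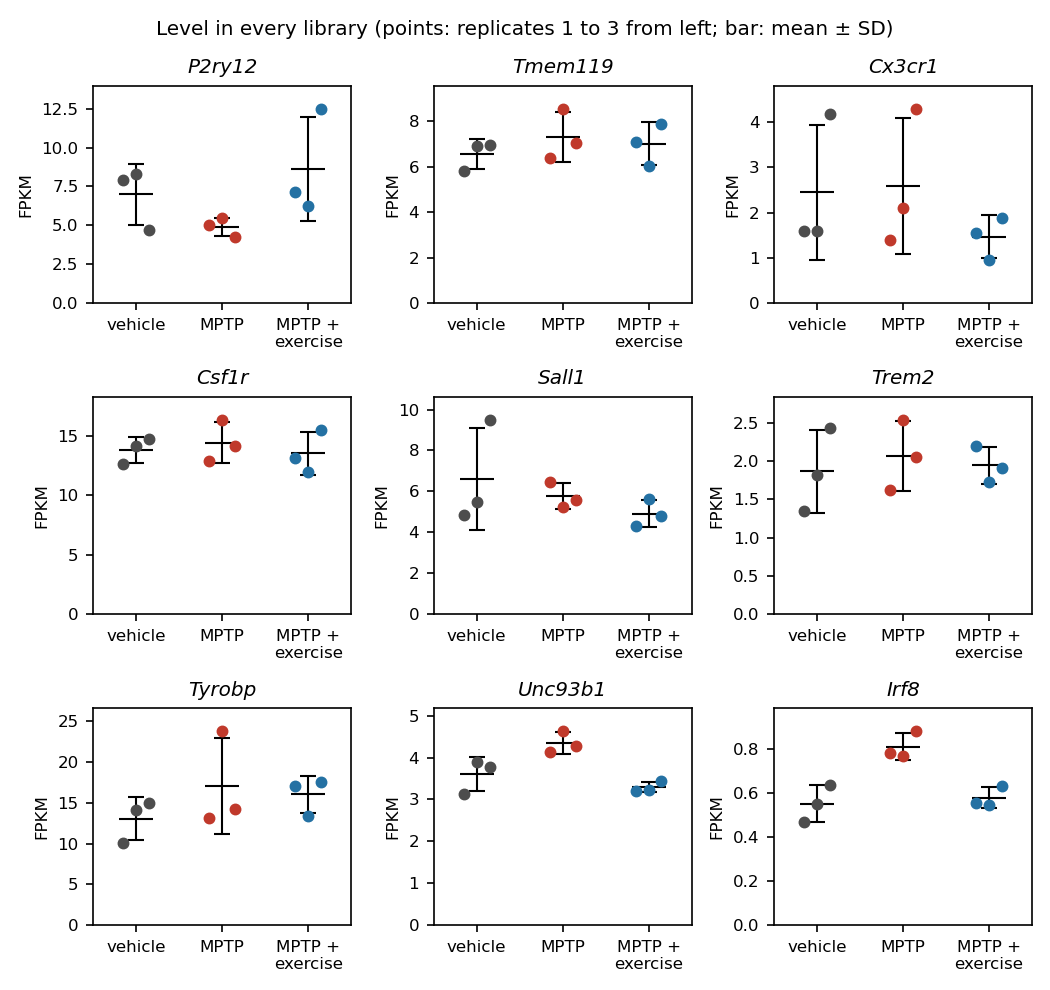
Level in FPKM (y axis, from 0) of 9 homeostatic microglia genes in each library (points, replicates 1 to 3 from left) of the 3 groups (x axis), with the mean and SD of each group as bars. Unc93b1 and Irf8 are higher in all 3 MPTP libraries than in the other 6, P2ry12 is above all MPTP libraries in all 3 MPTP + PE libraries, and the groups of Tmem119, Csf1r and Trem2 overlap.

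MPTP was first set against vehicle, to ask whether the toxin altered these genes. No member rose or fell past the threshold: 0 of 32 had a limma adjusted p under 0.05 with Benjamini-Hochberg correction over all genes, where 2 of 15997 genes (0.0125%) did. At an unadjusted p under 0.05 there were 4 members, all higher in MPTP (Ly86, Fcer1g, Irf8 and Unc93b1), where 4.09% of all genes passed. The log2 fold change was above 0 in 25 of 32 members, against 48.1% of all genes, and its median was 0.09 (range -0.41 for P2ry12 to 0.47 for Ltc4s), against -0.01 over all genes. All 8 phagocytic and ITAM genes and all 5 surface, secreted and cytoskeletal markers had a value above 0. The groups did not overlap for 6 members, all higher in MPTP (Itgam, Irf8, Fcer1g, Lgmn, Unc93b1 and Olfml3), against 9.43% of all genes in either direction. With 3 libraries against 3, the exact two-sided permutation p of each such member is 0.1, the smallest that 20 assignments allow. Vehicle library 1 decided much of the count: without it 16 of 32 members were higher, and the median was 0.00 (0.0018). With the choroid plexus genes as a covariate, 11 of 32 were higher and the median was -0.08. Their summed level, 40.5 to 352 FPKM in vehicle and 967 to 2103 in MPTP libraries, did not overlap between the groups. The covariate thus largely follows the group, and this fit cannot tell one from the other. The part of these genes in the result was not tested beyond that fit.

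The comparison of MPTP + PE with MPTP asks what voluntary exercise changed in mice given the toxin. It shares the 3 MPTP libraries with the previous comparison, so values high in MPTP enter both with opposite sign. No member passed the threshold (limma, Benjamini-Hochberg), and neither did any of the other genes (0.0%). At an unadjusted p under 0.05 there were 3 members, against 3.99% of all genes: Unc93b1 and Irf8 were lower and P2ry12 higher in MPTP + PE. The log2 fold change was above 0 in 7 of 32 members, against 45.7% of all genes, with a median of -0.08 (range -0.48 for Cx3cr1 to 0.66 for P2ry12), against -0.01 over all genes. P2ry12 was higher without overlap, and Unc93b1, Irf8 and Cd33 were lower without overlap, where 8.02% of all genes did not overlap. The count of members higher ranged from 3 without MPTP + PE library 1 to 15 without MPTP + PE library 2, and was 11 without MPTP library 2, 4 without MPTP library 1 and 4 without MPTP + PE library 3. With the choroid plexus covariate it was 18 of 32, with a median of 0.02.

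Between MPTP + PE and vehicle the members stood level. The log2 fold change was above 0 in 16 of 32 members, against 44.7% of all genes, with a median of 0.00 (-0.0007), against -0.02 over all genes, and this sign turned with the scaling (0.04 after quantile normalization). None passed the limma threshold after Benjamini-Hochberg adjustment, as among all genes (0.0%), and 0 members had an unadjusted p under 0.05, where 6.54% of all genes did. Ly86 was higher and Entpd1 lower without overlap, where 15.6% of all genes did not overlap. Sall1 had a difference of -0.32 (95% interval -0.79 to 0.14) and Gpr34 one of 0.23 (-0.11 to 0.57), both with a limma adjusted p of 0.77. The Sall1 difference was -0.07 without vehicle library 3 and -0.49 without vehicle library 1, and that of Gpr34 was 0.15 without vehicle library 1, 0.13 without MPTP + PE library 1 and 0.36 without MPTP + PE library 2. Without vehicle library 1 the count was 9 of 32.

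These libraries bound the size of a change more firmly for some members than for others. On the log2(FPKM + 1) scale, the unadjusted 95% interval lay within 1 unit in either direction for 30 of 32 members between MPTP and vehicle, the exceptions being Ltc4s and Olfml3. It did so for 29 between MPTP + PE and MPTP, the exceptions being P2ry12, Cx3cr1 and Olfml3, and for 31 between MPTP + PE and vehicle, the exception being Cx3cr1. The median SE of a member was 0.14 log2 units, from 0.08 for Entpd1 to 0.35 for Cx3cr1. Because 1 is added to each value, 1 unit on this scale is more than a 2-fold change in FPKM, by more the lower the gene, so these bounds are not bounds of 2-fold in FPKM.

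**Figure D2:**
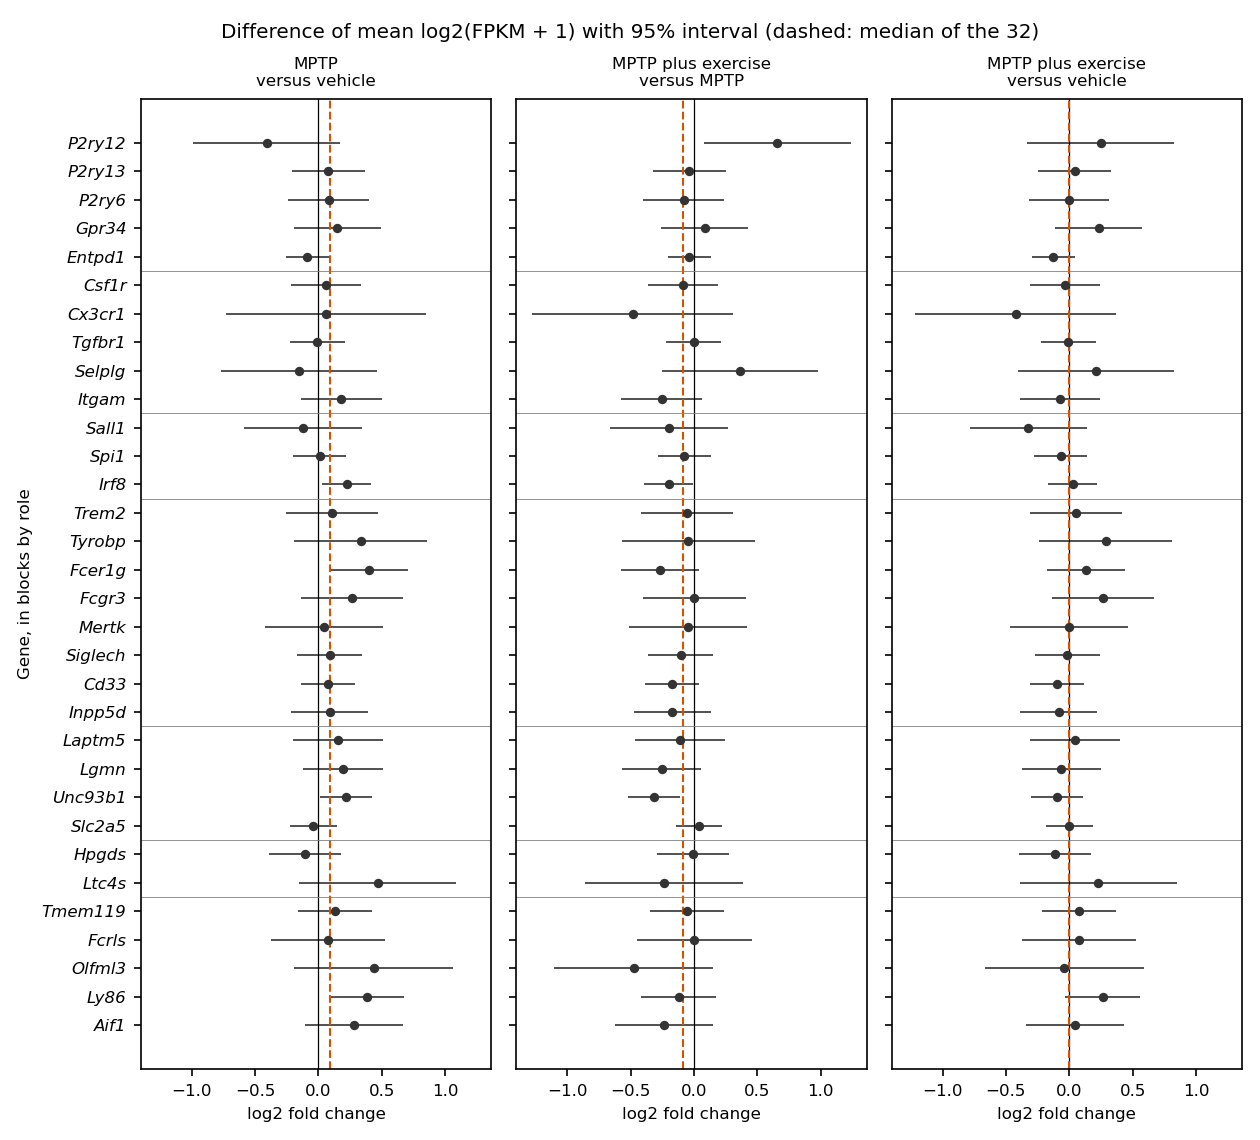
Difference of mean log2(FPKM + 1) (x axis) for each of the 32 genes (y axis, in blocks by role) in the 3 comparisons, with the unadjusted 95% interval from limma as bars and the median of the 32 as a dashed line. The median is 0.09 for MPTP against vehicle, -0.08 for MPTP + PE against MPTP and close to 0 for MPTP + PE against vehicle, and most intervals cross 0.

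The libraries differed from each other in these genes within groups as well as between them. The median over the 32 genes of the deviation from each gene's own mean was -0.22, -0.03 and 0.09 log2 units in vehicle libraries 1 to 3. It was -0.06, 0.19 and 0.07 in MPTP libraries and 0.02, -0.13 and 0.04 in MPTP + PE libraries. The mean of these medians was -0.05 ± 0.15 in vehicle, 0.07 ± 0.13 in MPTP and -0.02 ± 0.09 in MPTP + PE libraries (SD, n = 3 each). Vehicle library 1 was below the gene mean for 28 of 32 members and was the lowest library for 18 of them. MPTP + PE library 2 was below the mean for 29 members and lowest for 7, and MPTP library 2 was highest for 12.

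**Figure D3:**
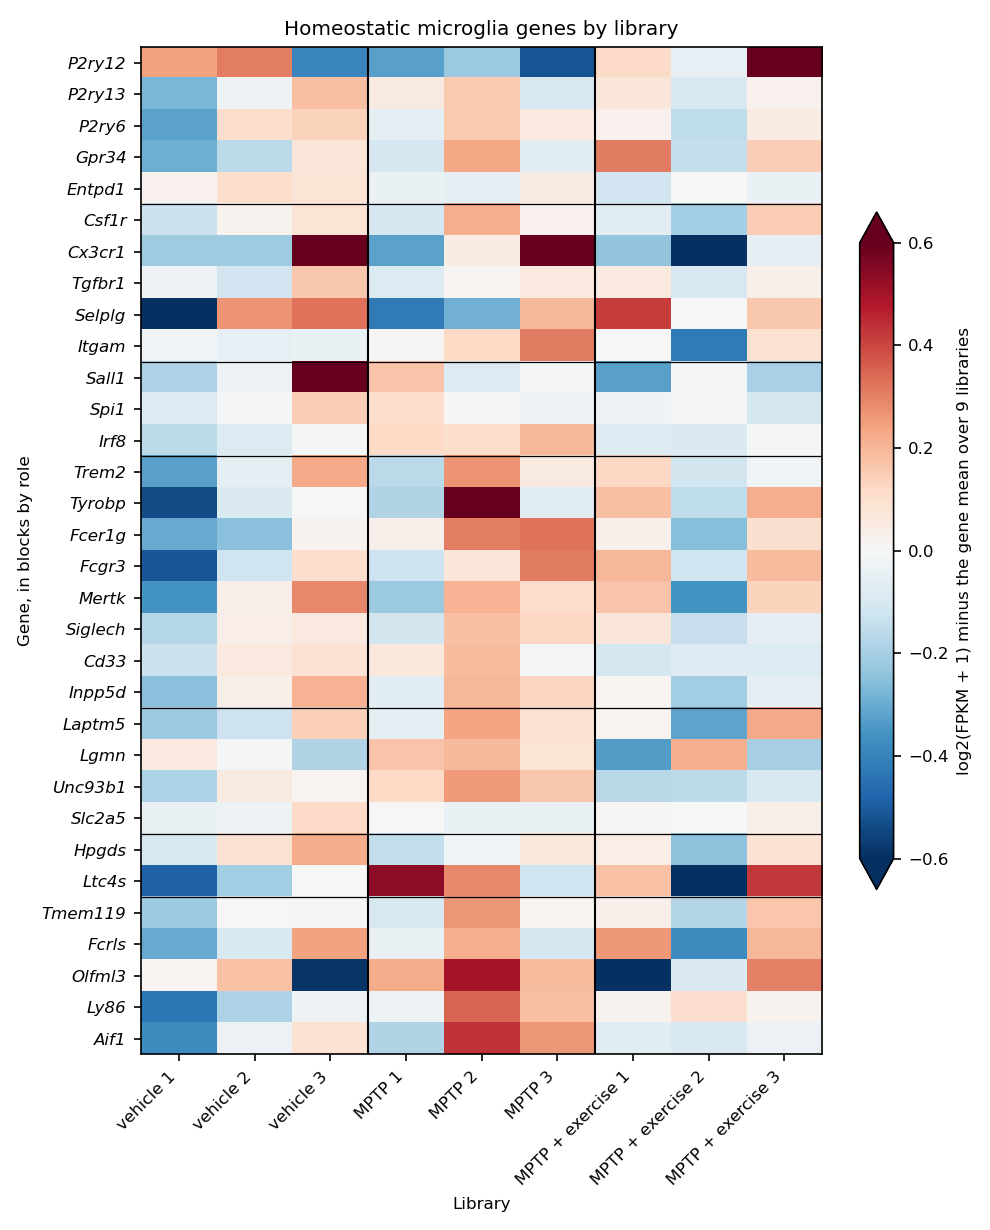
Deviation of log2(FPKM + 1) from the gene mean over 9 libraries (colour, red above and blue below, clipped at 0.6) for the 32 genes (rows, in blocks by role) in each library (columns). Vehicle library 1 and MPTP + PE library 2 are blue for 28 and 29 of the 32 genes, MPTP library 2 is red for 26, and P2ry12 and Lgmn run against most others.

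Part of the set moved together across libraries, and several members did not. The correlation of each gene with the median of the other 31 over the 9 libraries is given as a description, since genes share library and depth. Its median was 0.71, and 16 of 32 members (50.0%) exceeded 0.7, against 1035 of 15965 other tested genes (6.48%) measured against the median of the 32. After group means were subtracted the median was 0.79, and 20 members (62.5%) exceeded 0.7, against 11.1% of other genes. Without vehicle library 1 and MPTP library 2, the farthest from the median, 7 libraries remained, the median r was 0.61, and 14 members (43.8%) exceeded 0.7, against 11.5%. In these 7 libraries the median r of the 8 thalamic genes with the set was 0.86, and 7 of them (87.5%) exceeded 0.7. Over all 9 libraries the thalamic genes had a median r of -0.06, and 0 exceeded 0.7. The members closest to the others over the 9 libraries were Trem2 at 0.92, P2ry6 and Inpp5d at 0.91, Tmem119 at 0.90 and Aif1 and Mertk at 0.89. P2ry12 at -0.28, Lgmn at -0.22, Entpd1 at -0.16 and Olfml3 at 0.09 did not follow, and the 3 transcription factors ranged from 0.19 for Sall1 and 0.23 for Spi1 to 0.62 for Irf8. Over the 496 pairs of members the median r was 0.44, and 408 were above 0. Following the set was not confined to microglial genes. Other tested genes were ranked by r where they had a symbol and a mean of at least 1 FPKM. The 7 highest, led by Oaf at 0.98, Lrrc73 at 0.98 and Hmgn3 at 0.97 and named after their values were seen, belong to none of the lists.

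**Figure D4:**
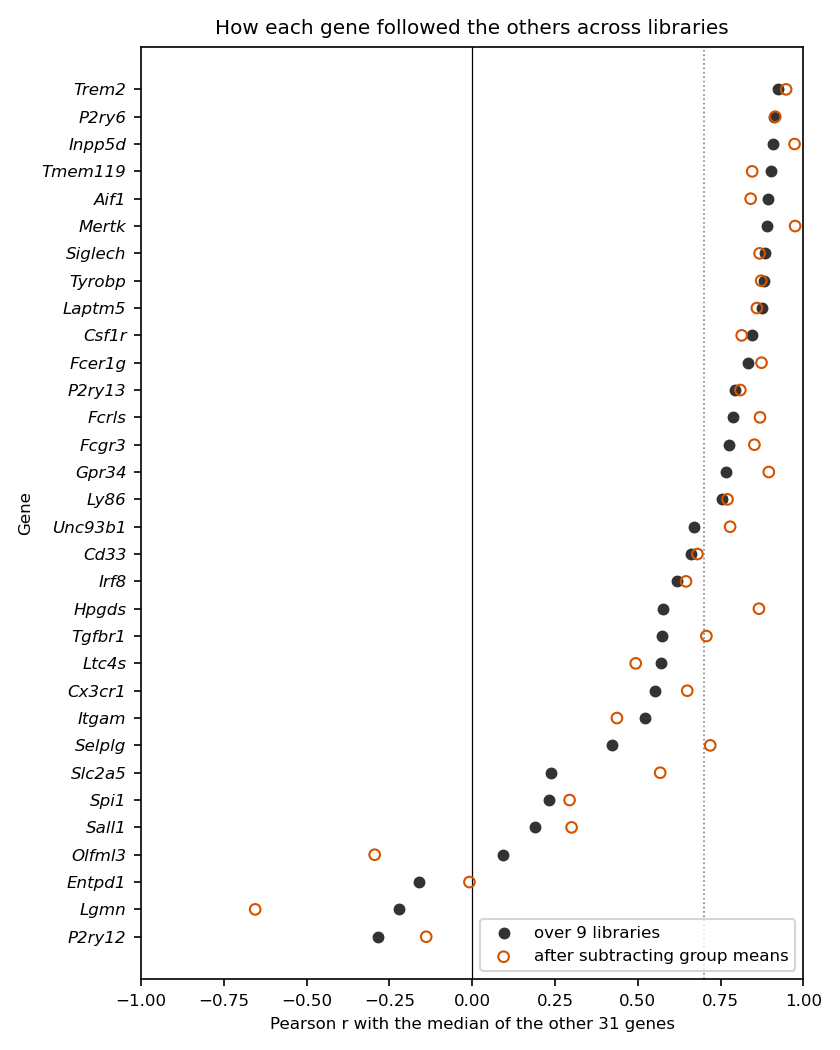
Pearson r of each gene (y axis) with the median of the other 31 genes (x axis), over the 9 libraries (filled) and after subtracting group means (open), with a dotted line at 0.7. Of the 32 genes, 16 lie right of the line over the 9 libraries, and P2ry12, Lgmn and Entpd1 lie below 0.

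The median of the set was also subtracted from each library, which removes a shift that the members share, and the members whose groups did not overlap were then largely others than before. Fcer1g and Ly86 were higher and Hpgds lower in MPTP than in vehicle without overlap, where 9.48% of the 15965 other genes did not overlap on the same scale. Of the 6 members without overlap in that comparison before subtraction, Fcer1g was the 1 that remained. P2ry12 was higher and Fcer1g, Inpp5d and Unc93b1 were lower in MPTP + PE than in MPTP, where 8.27% of other genes did not overlap. Tyrobp and Ly86 were higher and Hpgds lower in MPTP + PE than in vehicle, where 9.61% of other genes did not overlap. These counts of 3, 4 and 3 of 32 are near the background of other genes.

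Markers of other cells differed in how far they moved with the library pattern. Their median r with the median of the 32 over 9 libraries was 0.09 for neuron, 0.13 for astrocyte and -0.02 for endothelial genes. For choroid plexus genes it was 0.55, and for dopaminergic genes -0.40. The 6 oligodendrocyte genes, which encode myelin proteins, had their highest median deviations in vehicle library 1 (0.41), MPTP library 1 (0.22) and MPTP + PE library 2 (0.46), the same 3 libraries in which the homeostatic genes had their lowest. Their median r with the median of the 32 was -0.74 over 9 libraries and -0.84 after group means were subtracted. Within a library the 2 sets draw on one sequenced total. The part of white matter content in the member values was not tested beyond a fit with the oligodendrocyte level as a covariate. In that fit 23 of 32 members were higher in MPTP than in vehicle, with a median of 0.06. Of the 26 tested genes of a second microglia list, 11 (42.3%) exceeded an r of 0.7 with the set, against 6.48% of other genes, with a median of 0.68. Without vehicle library 1 and MPTP library 2, 4 (15.4%) did so, near the 11.5% of other genes, and the median was 0.45.

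**Figure D5:**
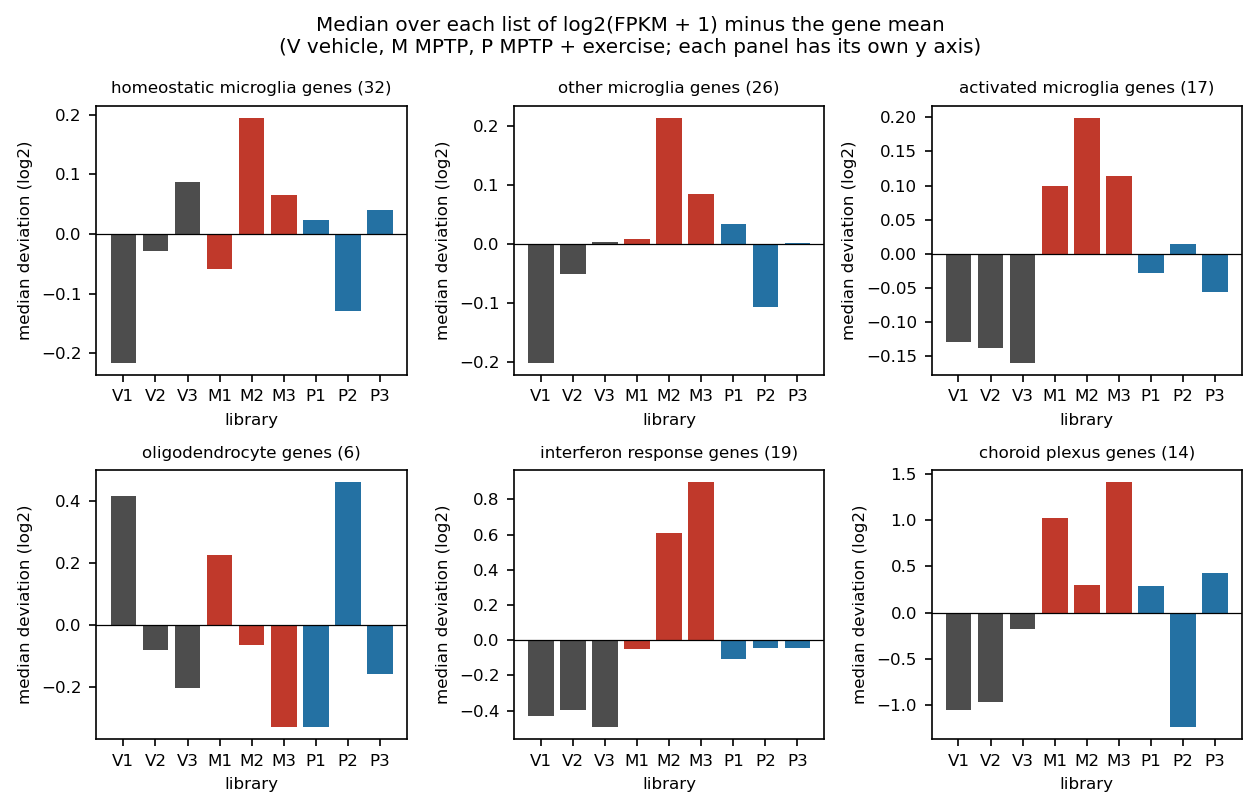
Median deviation of log2(FPKM + 1) from the gene mean (y axis, a separate scale in each panel) in each library (x axis; V vehicle, M MPTP, P MPTP + PE) for the 32 genes and 5 other lists. The 3 libraries highest in oligodendrocyte genes (V1, M1 and P2) are the lowest in homeostatic microglia genes. The median of the 17 tested genes of activated microglia, of 25 listed, is above 0 in all 3 MPTP libraries and below 0 in all 3 vehicle libraries.

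The ligands and signalling partners of the members were measured from a list of 21 genes, of which 19 were tested and 0 passed the threshold in any comparison (limma, Benjamini-Hochberg). Against vehicle, 13 of 19 were higher in MPTP, with a median of 0.06, and 2 had an unadjusted p under 0.05, where 48.1% and 4.09% of all genes did. Gas6, which bridges dying cells to Mertk, was at 41.7, 41.2 and 33.5 FPKM in vehicle, 50.6, 46.1 and 45.8 in MPTP and 33.8, 43.3 and 35.8 in MPTP + PE libraries. All MPTP values were above all others, by 0.29 log2 units against vehicle (limma adjusted p = 0.991), and MPTP + PE differed from MPTP by -0.34 (adjusted p = 1.0). Smad4, the common partner of TGF-beta signalling, was at 8.84, 8.61 and 8.66 FPKM in vehicle and 7.22, 6.58 and 7.97 in MPTP libraries, a difference of -0.24 (limma adjusted p = 0.991). Ptpn6, the phosphatase SHP-1 recruited by inhibitory receptors, differed between MPTP + PE and MPTP by -0.33 (limma adjusted p = 1.0). The 2 ligands of Csf1r, named here for that role after their values were seen, had differences between MPTP and vehicle of 0.12 for Csf1 and 0.05 for Il34.

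Other microglial states were read from lists that were also chosen with results of these data known. Of the 26 genes of the second microglia list, MPTP had higher values than vehicle in 22, with a median of 0.16, and 4 had an unadjusted p under 0.05, where 48.1% of all genes were higher and 4.09% had such a p. They were Ctss, a lysosomal protease, and C1qa, C1qb and C1qc, the chains of the complement component C1q. Ctss was at 36.7, 43.1 and 47.6 FPKM in vehicle, 59.9, 86.6 and 78.1 in MPTP and 57.9, 58.1 and 56.7 in MPTP + PE libraries, a difference between MPTP and vehicle of 0.80 (limma adjusted p = 0.393). Of 25 genes of activated microglia 17 were tested, and 15 of the 17 were higher in MPTP than in vehicle. Their median was 0.27, and 7 had an unadjusted p under 0.05 in limma, against the same shares of all genes. The rest of that list, named here because they fell below the filter, were Cst7, Itgax, Gpnmb, Clec7a, Ch25h, Ccl3, Ccl4 and Lgals3. These counts do not cover them. Among tested interferon response genes 19 of 19 were higher, with a median of 0.92. The rise was uneven, with median deviations of -0.05, 0.61 and 0.90 in MPTP libraries 1 to 3. The homeostatic members had a median of 0.09 in the same comparison, and 0 genes of any of these lists passed the adjusted threshold.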

How the data were processed

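The authors' deposited FPKM were taken without change. Bead-enriched, fragmented mRNA was sequenced on the NovaSeq6000 platform, per the labels' protocols, and per the submitters' processing notes bcl2fastq, HTSeq, DESeq2 and the build GRCm38 were used. For the aligner, the strandedness and the tool that made the FPKM, the sources used here give nothing. Symbols, coordinates and exon overlaps came from GENCODE M21 on GRCm38 (55154 genes matched a symbol, 181 did not).

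The 55335 genes were reduced to 15997 with a mean of at least 0.5 FPKM, and log2(FPKM + 1) was fitted with limma 3.58.1 (R 4.3.3) with a mean-variance trend. A single model held all 9 libraries and gave the 3 contrasts, on 6 residual plus 2.68 prior degrees of freedom, and two-sided p were adjusted over all genes by Benjamini-Hochberg, with a threshold of 0.05. The fit was tested on simulated data. Other steps used Python 3.11.15, pandas 2.3.3, numpy 2.4.6, scipy 1.17.1 and matplotlib 3.10.9. Fragment numbers are estimates from how low FPKM values are spaced in 19516 single-transcript genes over 500 bases.

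The members and all lists were chosen with earlier results of these data known. Every library value is given for P2ry12, Tmem119, Cx3cr1, Csf1r, Sall1, Trem2 and Tyrobp and for the 4 members with the smallest p in each comparison, and means with SD for the others. From other lists at most the 4 genes with the smallest p in a comparison are named, with the exceptions said.

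Deviations from the group means correlated between same-numbered libraries of MPTP and vehicle at 0.25, 0.33 and 0.11, and the blocked fit was read beside that comparison. For MPTP + PE libraries the correlations had either sign, with -0.34, -0.13 and 0.25 for MPTP and -0.26, 0.007 and 0.24 for vehicle. Differently numbered libraries were not set beside these values, so they do not establish a pairing. Alternatives changed the pseudocount, filter, scaling, variance model, weights, libraries and covariates.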

Additional observations from a re-analysis of the deposited data

How the results depend on the processing

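No member passed the threshold under any of the 22 alternatives (limma, Benjamini-Hochberg), 18 of them planned and 4 added after the data were seen, and no member named for its small p changed the sign of its difference in that comparison. The replicate block made no member pass. In this balanced design it cannot move a fold change, so its counts of members higher (25, 7 and 16 of 32) are those of the fit without it and say nothing of stability. For MPTP against vehicle, leaving out 1 library gave counts from 16 to 29 and medians from 0.00 (0.0018) to 0.19. For MPTP + PE against MPTP the ranges were 3 to 15 and -0.16 to -0.01, and for MPTP + PE against vehicle 9 to 22 and -0.0708 to 0.0665. With a mean of at least 5 FPKM, 12 members were tested, of which 10, 4 and 8 were higher in the 3 comparisons, and the median of the last turned to 0.0775. Without both vehicle library 1 and MPTP + PE library 2 the first counts were 16 and 15. The choroid plexus covariate gave 11 and 18, with medians of -0.0775 and 0.0212, both reversed. Between MPTP and vehicle this covariate largely follows the group, so the reversal there does not measure stability. Rescaling to the same sum gave 4 for MPTP + PE against MPTP and 10 against vehicle, and array weights gave 15 for the former. For MPTP against vehicle these 2 settings gave 22 and 19 of 32, with medians of 0.0468 and 0.0278 in place of 0.0891. The median of MPTP + PE against vehicle, close to 0, also reversed to 0.0238 with a pseudocount of 0.1, to 0.0431 after quantile normalization, to 0.0223 with array weights, and to 0.0001 over the 27 members that share no exonic base with another gene. Among single members, a pseudocount of 0.1 took Irf8 to 0.49 in MPTP against vehicle and -0.43 in MPTP + PE against MPTP, and the choroid plexus covariate took it to 0.13 in the former and Fcer1g to 0.12 and -0.08. Fcer1g in MPTP + PE against MPTP was -0.15 with array weights and -0.16 without MPTP + PE library 2. Without vehicle library 1, Unc93b1 was 0.14 in MPTP against vehicle and Ly86 0.15 in MPTP + PE against vehicle. Entpd1 was -0.07 there after quantile normalization. Apart from the fits on fewer members or libraries, the cause was not tested. Depth limits P2ry6, Ltc4s and Aif1 most, whose lowest libraries held about 16.3, 29.8 and 47.7 fragments.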
